A study of Mus musculus with 17 samples.

Results

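The methylation of histone H3 at lysine 4 is written by a small family of enzymes, and 9 genes that encode such methyltransferases were followed here through stem cells of the mouse testis, the cells that convert from them, and other cell types. They are Kmt2a, Kmt2b, Kmt2c, Kmt2d, Setd1a, Setd1b, Prdm9, Smyd3 and Setd7, chosen by gene symbol and not by any measured value, out of 23891 gene symbols and 32661 RefSeq transcripts in the files. All 9 genes were measured in all 17 samples, so no member was lost to a filter. Each gene is given by the RefSeq transcript with the highest mean FPKM (fragments scaled to transcript length and to sequencing depth) over the 17 samples. Kmt2b was the only member with more than 1 RefSeq transcript, and its other transcript held at most 4.86% of their summed FPKM in any sample.

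H3K4 trimethylation marks the start sites of active genes and, together with H3K27 trimethylation, the bivalent promoters of developmental genes in stem cells, whereas H3K4 monomethylation marks enhancers. The KMT2 and SETD1 enzymes work in complexes that share the core subunits WDR5, RBBP5, ASH2L and DPY30, and each pair of enzymes has partners of its own. SETD1A and SETD1B are known for most of the trimethylation of active promoters, KMT2A and KMT2B for promoters of developmental genes including bivalent ones, and KMT2C and KMT2D for enhancers. PRDM9 works alone and marks the sites of meiotic recombination in germ cells. SMYD3 and SETD7 have been described as H3K4 methyltransferases too, but are also known to methylate proteins other than histones.

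RNA was sequenced from 4 lines of spermatogonial stem and progenitor cells (SSCs), 6 lines of multipotent adult spermatogonial-derived stem cells (MASCs), 2 embryonic stem cell (ESC) lines, 2 induced pluripotent stem (iPS) cell lines, 2 cultures of haematopoietic stem and progenitor cells (HSCs) and 1 culture of mouse embryonic fibroblasts (MEFs). SSC replicates 1 and 2, MASC replicates 1 and 2 and ESC replicate 1 carry Oct4-GFP, 129mix is the background of SSC replicate 4, MASC replicates 3 and 4, ESC replicate 2, the MEFs and both iPS cell lines, MASC replicates 5 and 6 are Gt(ROSA26)Sor-lacZ, and SSC replicate 3 and both HSC cultures are C57Bl/6J. MASCs are colonies picked by their ESC morphology after SSCs had converted spontaneously in long culture, and iPS cells are colonies picked after 2 μg/ml doxycycline had induced the 4F2A cassette in E13.5 fibroblasts of tetO-4F2A x H3.3B-HA mice, so each such line descends from selected colonies. The MEF sample came from E13.5 embryos of H3.3B-HA mice and carries no 4F2A cassette. SSCs, MASCs, ESCs and iPS cells grew on MEF feeders, which for SSCs were thinned by plating on gelatin for 2 hours. The HSCs, lineage-negative bone marrow cells expanded with Kit ligand, grew on human endothelial feeders (E4ORF1-HUVECs). SSC medium contained glial cell-derived neurotrophic factor, basic fibroblast growth factor, epidermal growth factor and serum. MASCs, ESCs and iPS cells were kept with serum replacement and leukaemia inhibitory factor and were collected within 20 passages. Medium and cell type therefore cannot be told apart in any comparison with SSCs. The lines, and not cells within them, are the replicates. The MASC and ESC lines were subcloned. Nothing states that lines of the same background, or the 2 HSC cultures, came from separate animals, so p-values measure the spread between these samples only.

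The labels were checked against marker genes before the members were compared. All 8 pluripotency markers were higher in MASCs than in SSCs, and 7 of 8 SSC markers were lower, while the remaining SSC marker, Etv5, was higher. All 8 blood markers were higher in the HSC cultures than in the pluripotent cells, but so were all 8 mast cell markers, whose summed level was 38717 to 63172 FPKM in the HSC cultures and 0.24 to 48.7 FPKM in every other sample. The HSC cultures are called by their label throughout. Fibroblast markers summed to between 26.7 and 1258 FPKM in the SSC lines and between 25.7 and 1440 FPKM in the MASC lines, with the feeder gene Col1a2 above 100 FPKM in SSC replicates 1 and 3, MASC replicate 1, ESC replicate 1 and HSC replicate 2. The mast cell tryptase gene Tpsb2, which was otherwise near 0 outside the HSC cultures, was above 5 FPKM in SSC replicate 3, MASC replicate 2 and ESC replicate 1. The part of these cells or of shared reads in the members' values was not tested, and for each comparison the count of members called is also given without those libraries. At 1 FPKM the coverage that Cufflinks listed was 1.26 to 3.23 reads per base, and the files hold no read counts.

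On mm9, the build of the files, Kmt2a lies at chr9:44611438-44689357, Kmt2b at chr7:31353874-31373745, Kmt2c at chr5:24777612-25004601, Kmt2d at chr15:98662100-98701636, Setd1a at chr7:134920903-134943633, Setd1b at chr5:123592202-123618639, Prdm9 at chr17:15680043-15700287, Smyd3 at chr1:180885170-181448134 and Setd7 at chr3:51319240-51364745. The spans cover exons and introns of each gene. Setd7 was the only member whose span touched that of another listed gene, 5031434O11Rik, over 1067 bases. The members are long and differ in base composition, with 7 of the 9 in the longest 10% of the expressed transcripts (Prdm9 and Smyd3 are the exceptions) and exonic GC contents from 46.4% in Kmt2c to 61.0% in Setd1b, against a median of 49.8% over 26939 transcripts.

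The RefSeq promoters of 3 members are shown because these genes were lower in MASCs than in SSCs at an adjusted p under 0.05 from limma under every alternative setting run, as described further on. The 250 bases before each RefSeq start site are given on GRCm38, 5′ to 3′ on the strand of the gene, with each CG dinucleotide in capitals. Kmt2a is at chr9:44881290-44881539 on the minus strand, Setd1a at chr7:127777139-127777388 on the plus strand, and the 2 listed starts of Prdm9 at chr17:15563332-15563581 and chr17:15564355-15564604 on the minus strand.
Kmt2a: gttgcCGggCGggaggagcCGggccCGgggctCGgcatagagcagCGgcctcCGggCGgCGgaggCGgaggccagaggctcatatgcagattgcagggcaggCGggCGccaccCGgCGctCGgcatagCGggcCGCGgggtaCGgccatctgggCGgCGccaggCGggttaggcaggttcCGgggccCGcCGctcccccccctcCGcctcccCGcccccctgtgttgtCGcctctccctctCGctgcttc
Setd1a: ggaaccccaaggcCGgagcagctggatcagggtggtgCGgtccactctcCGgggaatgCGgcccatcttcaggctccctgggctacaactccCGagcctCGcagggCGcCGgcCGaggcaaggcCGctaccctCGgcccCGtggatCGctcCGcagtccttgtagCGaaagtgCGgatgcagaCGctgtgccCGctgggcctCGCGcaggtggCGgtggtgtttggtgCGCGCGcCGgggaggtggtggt
Prdm9, first start: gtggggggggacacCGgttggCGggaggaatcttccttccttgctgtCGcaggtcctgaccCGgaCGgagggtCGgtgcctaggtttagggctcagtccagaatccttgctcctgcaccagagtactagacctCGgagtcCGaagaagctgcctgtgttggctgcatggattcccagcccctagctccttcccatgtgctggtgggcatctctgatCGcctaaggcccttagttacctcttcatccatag
Prdm9, other start: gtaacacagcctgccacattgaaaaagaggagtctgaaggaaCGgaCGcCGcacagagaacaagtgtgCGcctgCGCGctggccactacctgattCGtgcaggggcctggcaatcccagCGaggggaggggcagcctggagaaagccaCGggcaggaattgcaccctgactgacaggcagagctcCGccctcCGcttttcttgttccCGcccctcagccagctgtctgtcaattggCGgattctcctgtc
The Kmt2a window held 29 CG dinucleotides and the Setd1a window 25, while the windows of Prdm9 held 9 and 13, against a median of 6 over 32851 promoters. Among the other members with an entry, Kmt2c had 48, Kmt2d 26 and Setd7 17. The letters GGGCGG, read on both strands, were found for Kmt2a, Kmt2c, Kmt2d and 1 start of Prdm9, and in 32.7% of all promoters. The letters CCAAT were found at the same start of Prdm9 and for no other of these 6 genes, against 33.8% of all promoters, and CACGTG was in none of the 7 windows, against 6.02%. On mm9 a second annotation, GENCODE, starts Setd1a at 134920184, upstream of the RefSeq start at 134920903. The Setd1a window may thus lie inside the gene as GENCODE draws it. For Prdm9, on the minus strand, the GENCODE start on mm9 is 15701318, upstream of the RefSeq start at 15700287. The window of the first Prdm9 start also lies downstream of the other listed start, so it too may lie inside the gene. The letters describe the windows only, and the files hold no chromatin measurement of them.

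Setd1a had the highest FPKM of the 9 genes in 16 of the 17 samples, Kmt2b being higher in iPS replicate 1, and Prdm9 had the lowest in 16 of 17, Setd1b being lower in SSC replicate 3. FPKM is already divided by transcript length, so these levels can be set beside each other. SSC lines had the highest group mean for 7 of the 9 genes. The exceptions were Setd1b, highest in MASCs, and Kmt2d, for which the HSC cultures had a mean of 8.59 FPKM and the SSC lines one of 8.03 FPKM with overlapping values. Among the 7, the SSC values of Kmt2c, Prdm9, Smyd3 and Setd7 overlapped those of the group with the next highest mean. The share of all transcripts with their highest mean in SSCs was not tested, so the count of 7 does not set these genes apart. Of the 1714 longest expressed transcripts, 40.1% were called lower and 12.4% higher in MASCs than in SSCs. For ESCs against SSCs the shares were 30.6% and 8.11%, and for HSC cultures 45.7% and 9.04%. All members but Prdm9 and Smyd3 are among these long transcripts. In bulk RNA, a lower level can mean fewer cells that express a gene or less RNA per cell, and these cannot be told apart.

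**Figure D1:**
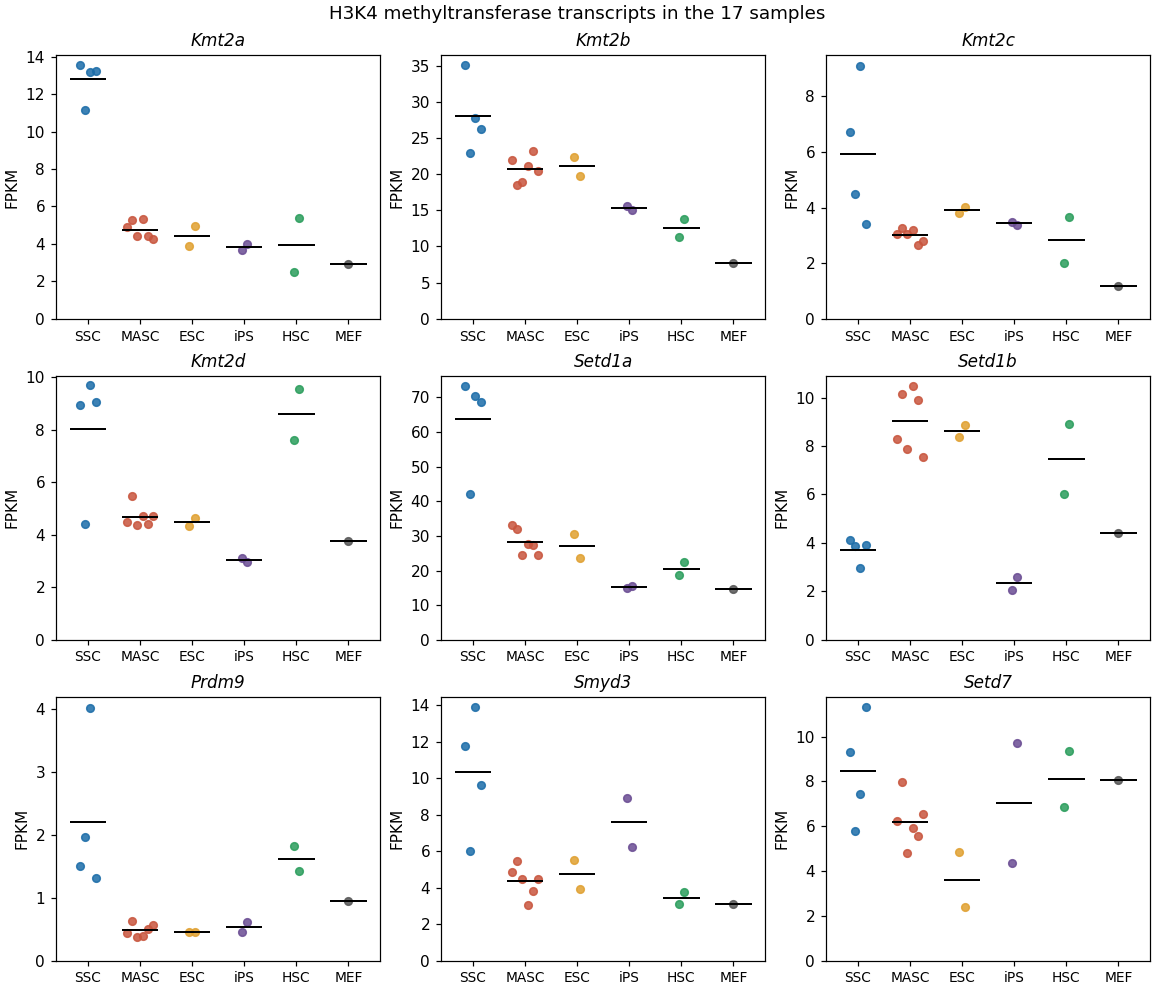
FPKM of the 9 genes (vertical axis, from 0) in each sample by cell type (horizontal axis), with 1 point per line or culture and a bar at the group mean. The SSC lines stand above the MASC and ESC lines for Kmt2a and Setd1a and below them for Setd1b.

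The question of the first comparison is how the H3K4 methyltransferases differ between SSCs and the MASCs that arise from them. Of the 9 genes, Setd1b was higher in MASCs and 7 (Kmt2a, Kmt2b, Kmt2c, Kmt2d, Setd1a, Prdm9 and Smyd3) were lower, while Setd7 did not pass the test. Of all 32661 transcripts, 11.4% were called higher and 19.5% lower, and among transcripts with a mean of at least 1 FPKM the shares were 18.5% and 26.5%. Among the 1714 expressed transcripts of the longest 10%, 12.4% were higher and 40.1% lower, with a median difference of -0.39, whereas the median over all expressed transcripts was -0.10 and that over the 9 members was -0.72. Differences are given on the scale of log2(FPKM + 1), which understates the change of low genes, and a call is an adjusted p under 0.05 from limma. The part of transcript length in the members' values was not tested beyond an alternative in which the medians of length classes were aligned across samples. In it 4 members stayed lower (Kmt2a, Setd1a, Prdm9 and Smyd3) and Setd1b stayed higher.

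The pair of SETD1 enzymes went in opposite directions. Setd1a stood at 73.3, 42.2, 70.4 and 68.7 FPKM in SSC replicates 1 to 4, and between 24.5 and 33.1 FPKM with a median of 27.6 in the 6 MASC lines. Every MASC line was below every SSC line, and SSC replicate 2 lay between the other SSC lines and the MASCs. The difference was -1.12 ± 0.17 (SE, adjusted p = 0.000687), and the mean FPKM was 2.25-fold lower. Setd1b stood at 4.12, 3.85, 2.95 and 3.91 FPKM in the SSC lines, and between 7.54 and 10.47 FPKM with a median of 9.09 in the MASC lines. Every MASC line was above every SSC line, with a difference of 1.09 ± 0.11 (adjusted p = 5.24e-05) and a mean FPKM 2.44-fold higher. Both calls held in all 23 alternatives run for this comparison. The ratio of Setd1a to Setd1b FPKM, which was looked at after the values were seen, was 10.9 to 23.8 in SSC lines and 2.65 to 4.00 in MASC lines.

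**Figure D2:**
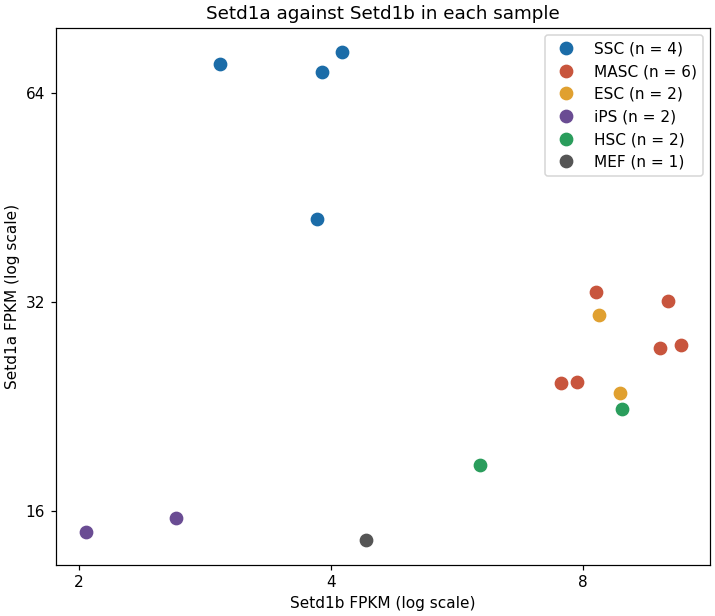
Setd1a FPKM (vertical axis) against Setd1b FPKM (horizontal axis) in each of the 17 samples, both on log scales, coloured by cell type. SSC lines sit at the upper left, MASC and ESC lines further right and lower, and the 2 iPS cell lines at the lower left with Setd1b at 2.04 and 2.61 FPKM.

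Kmt2a, which encodes MLL1 and is known for keeping Hox genes active, had the smallest standard error of the 9 members. Its levels were 13.54, 11.16, 13.20 and 13.22 FPKM in the SSC lines and 4.24 to 5.33 FPKM with a median of 4.67 in the MASC lines. The groups were far apart, with a difference of -1.26 ± 0.08 (adjusted p = 4.67e-06) and a mean FPKM 2.68-fold lower, and the call held in all 23 alternatives. Kmt2b, its close relative, stood at 35.1, 22.9, 27.7 and 26.3 FPKM in the SSC lines and at 18.6 to 23.2 FPKM with a median of 20.8 in the MASC lines. SSC replicate 2 was within the MASC range, and the difference was -0.41 ± 0.11 (adjusted p = 0.0178). That call was lost under median-of-ratios scaling (-0.32, adjusted p = 0.0552), with GC classes aligned (-0.14, adjusted p = 0.397) and with a block for genetic background (-0.43, adjusted p = 0.0787), and with length classes aligned the difference was 0.072 (adjusted p = 0.67).

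The enhancer enzymes Kmt2c and Kmt2d were also lower in MASCs, by less. Kmt2c stood at 6.73, 4.50, 9.10 and 3.41 FPKM in the SSC lines, a wide spread, and at 2.64 to 3.26 FPKM with a median of 3.05 in the MASC lines. The groups did not overlap, but SSC replicate 4 was close to the MASC lines, and the difference was -0.72 ± 0.20 (adjusted p = 0.0186). Kmt2d stood at 8.93, 4.43, 9.72 and 9.05 FPKM in the SSC lines and at 4.36 to 5.47 FPKM with a median of 4.60 in the MASC lines, with SSC replicate 2 inside the MASC range. Its difference was -0.62 ± 0.17 (adjusted p = 0.0218). Without SSC replicate 1 the call was lost for Kmt2c (adjusted p = 0.0562) and for Kmt2d (adjusted p = 0.0635), and for Kmt2d also without SSC replicate 3 (adjusted p = 0.0653) or SSC replicate 4 (adjusted p = 0.065). Both calls were also lost with quantile normalization (Kmt2c -0.45, adjusted p = 0.165, Kmt2d -0.36, adjusted p = 0.204), with GC classes aligned (adjusted p = 0.0657 and 0.0616), with length classes aligned (-0.25, adjusted p = 0.362, and -0.14, adjusted p = 0.572) and with a block for genetic background (adjusted p = 0.0928 and 0.14).

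Prdm9, the meiotic enzyme, was low in all cells. Its levels in the SSC lines were 1.51, 1.97, 4.01 and 1.32 FPKM, and in the MASC lines 0.38 to 0.63 FPKM with a median of 0.47. All MASC lines were below all SSC lines, the difference was -1.04 ± 0.19 (adjusted p = 0.00219), and the mean FPKM was 4.54-fold lower. For this gene the confidence bounds that Cufflinks gave were 8.99% to 26.3% of the value to either side, wider than for the other members. Smyd3 stood at 11.8, 6.02, 13.9 and 9.63 FPKM in the SSC lines and at 3.05 to 5.47 FPKM with a median of 4.47 in the MASC lines. It did not overlap between the groups and was lower by a difference of -1.04 ± 0.21 (adjusted p = 0.00428). Setd7 stood at 9.32, 5.77, 7.45 and 11.3 FPKM in the SSC lines and at 4.81 to 7.96 FPKM with a median of 6.07 in the MASC lines. These ranges overlapped, and its difference of -0.38 ± 0.20 did not pass the test (adjusted p = 0.205, 95% interval -0.83 to 0.079).

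Genetic background did not turn any of these directions where it could be held fixed. Within Oct4-GFP (2 MASC and 2 SSC lines) the differences were -1.13 for Kmt2a, -0.75 for Setd1a, 1.03 for Setd1b and -0.83 for Prdm9. Within 129mix (2 MASC lines and 1 SSC line) they were -1.28, -1.36, 1.04 and -0.74 in the same order. For Kmt2c the values were -0.65 and -0.098, and for Setd7 they were -0.053 and -0.96. The C57Bl/6J line and the Gt(ROSA26)Sor-lacZ lines belong to 1 group each and give no such value. Without the libraries in which Col1a2 was above 100 FPKM, 3 members were lower (Kmt2a, Setd1a and Prdm9), and without those in which Tpsb2 was above 5 FPKM, 4 were lower (Smyd3 in addition). Setd1b was higher in both. Here and in the comparisons that follow, fits without these libraries hold fewer lines and can lose calls for any transcript. The part of this in the counts was not tested.

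ESCs, the reference for pluripotency, gave a like picture against SSCs. Setd1b was higher in ESCs and 5 members were lower, against 7.67% and 13.8% of all transcripts. Among transcripts with a mean of at least 1 FPKM the shares were 12.5% and 20.3%. In the longest 10% of expressed transcripts they were 8.11% and 30.6%, with a median difference of -0.37. This comparison shares the SSC lines with the previous one, so the values stand side by side and are not a repeat. Kmt2a was at 3.86 and 4.97 FPKM in the ESC lines (difference -1.35 ± 0.11, adjusted p = 4.05e-05) and Setd1b at 8.36 and 8.87 FPKM (difference 1.04 ± 0.14, adjusted p = 0.000796). Both genes lay outside the SSC range and kept their calls in all 19 alternatives run. Setd1a was at 30.7 and 23.7 FPKM (difference -1.18 ± 0.22, adjusted p = 0.00456) and Prdm9 at 0.46 FPKM in both lines (difference -1.06 ± 0.25, adjusted p = 0.0141). Smyd3 was at 5.53 and 3.95 FPKM (difference -0.94 ± 0.28, adjusted p = 0.0412) and Setd7 at 4.86 and 2.38 FPKM (difference -1.05 ± 0.27, adjusted p = 0.0219). Every ESC value of these genes was below every SSC value. With 2 ESC lines these calls rest on single libraries. Without ESC replicate 2, Setd1a (adjusted p = 0.0575), Prdm9 (0.085), Smyd3 (0.271) and Setd7 (0.232) were no longer called, and without ESC replicate 1, Prdm9 (0.0784) and Smyd3 (0.0809) were not. Smyd3 was also lost without SSC replicate 1 (0.0827), 3 (0.0745) or 4 (0.0685). With GC or length classes aligned or with quantile normalization, Smyd3 (adjusted p 0.119 to 0.169) and Setd7 (0.0533 to 0.133) were not called, while Kmt2a, Setd1a and Prdm9 were.

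Kmt2b, Kmt2c and Kmt2d did not pass the test between ESCs and SSCs. Kmt2b was at 22.4 and 19.8 FPKM in the ESC lines, below every SSC line (difference -0.38 ± 0.15, adjusted p = 0.101). Kmt2c was at 3.82 and 4.02 FPKM (difference -0.42 ± 0.26, adjusted p = 0.318) and Kmt2d at 4.35 and 4.64 FPKM (difference -0.67 ± 0.23, adjusted p = 0.071), both within the SSC range or at its edge. Without SSC replicate 2, Kmt2b (-0.46, adjusted p = 0.035) and Kmt2d (-0.90, adjusted p = 0.000102) were called lower. Without the libraries high in Col1a2, which leaves ESC replicate 2 as the only ESC line, 2 members were lower (Kmt2a and Prdm9), and without those high in Tpsb2, which leaves the same ESC line, 4 were lower (Setd7 in addition to Kmt2a, Setd1a and Prdm9).

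Between ESCs and MASCs, none of the 9 genes passed the test. By limma, 0.0276% of all transcripts were higher in ESCs and 0.00306% lower, so few calls of any kind were made in this comparison, and 954 transcripts had an unadjusted p under 0.05. Setd7 was the only member among those, at 4.86 and 2.38 FPKM in ESCs against 4.81 to 7.96 FPKM in MASCs (difference -0.67, unadjusted p = 0.0267, adjusted p = 1). The 95% intervals of the differences were narrowest for Kmt2a (-0.33 to 0.14), Setd1b (-0.35 to 0.25) and Kmt2b (-0.28 to 0.34) and widest for Smyd3 (-0.50 to 0.70). Kmt2c was the only gene whose groups did not overlap, higher in both ESC lines by 0.30 with an interval of -0.25 to 0.86. Without the libraries high in Col1a2 or those high in Tpsb2, the count of members called was again 0 in each direction (lowest adjusted p 0.741).

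**Figure D3:**
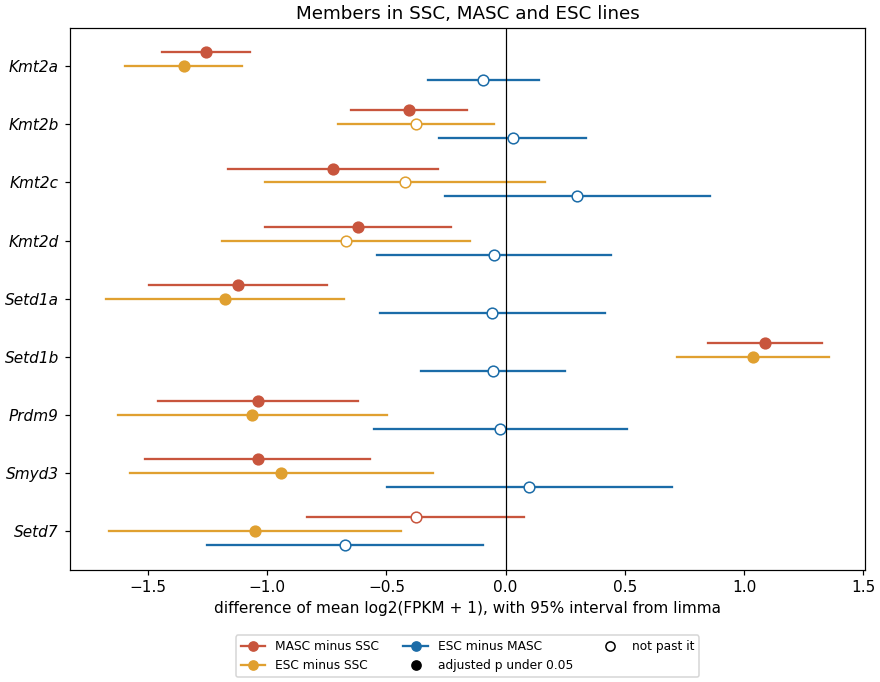
Difference of mean log2(FPKM + 1) (horizontal axis) for each gene (vertical axis) in MASC minus SSC, ESC minus SSC and ESC minus MASC, with the 95% interval from limma, where filled points passed an adjusted p of 0.05. The comparisons with SSCs lie left of 0 for 8 genes and right of 0 for Setd1b, and all points of ESC minus MASC are open.

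The iPS cells differed from the ESCs in Setd1b. Its levels were 2.04 and 2.61 FPKM in the iPS cell lines against 8.36 and 8.87 FPKM in the ESC lines, a mean FPKM 3.71-fold lower (difference -1.54 ± 0.19, adjusted p = 0.00429). The iPS cells had the lowest Setd1b of all groups, below the SSC lines as well. Over all transcripts 0.196% were called higher and 0.113% lower, and no other member passed. This fit took its spread from all 17 samples, and in a fit on the 4 lines alone the difference was the same but the adjusted p was 0.187. With the medians of GC classes aligned it was -1.46 (adjusted p = 0.0876). Without ESC replicate 1, ESC replicate 2 or either iPS cell line the call held (highest adjusted p 0.0292). Setd1b was also the 1 member called, and lower, without the libraries high in Col1a2 (-1.58, adjusted p = 0.0335) or those high in Tpsb2 (-1.58, adjusted p = 0.0272), both of which leave ESC replicate 2 as the only ESC line. The iPS cells carry the H3.3B-HA and tetO-4F2A alleles and ESC replicate 1 is of another background, so genotype and cell type cannot be told apart.

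The other KMT2 and SETD1 genes had lower means in iPS cells than in ESCs without passing the test. Setd1a was at 14.9 and 15.6 FPKM, below both ESC lines (difference -0.78 ± 0.24, adjusted p = 0.294), and Kmt2b at 15.6 and 15.0 FPKM, also below both (-0.44 ± 0.16, adjusted p = 0.47). Kmt2a was at 3.66 and 3.97 FPKM, Kmt2c at 3.49 and 3.38 FPKM and Kmt2d at 3.11 and 2.95 FPKM, with differences of -0.16, -0.15 and -0.45. The Kmt2a values overlapped, as ESC replicate 1 was at 3.86 FPKM. Smyd3 had the higher values in iPS cells, 8.90 and 6.26 FPKM (0.58 ± 0.31, adjusted p = 0.768), while Prdm9 (0.46 and 0.62 FPKM) differed by 0.076. Setd7 was at 4.36 FPKM in 1 iPS cell line and 9.70 FPKM in the other (0.77 ± 0.36, adjusted p = 0.656). Summed over the 6 KMT2 and SETD1 genes, FPKM was 42.9 and 43.6 in the iPS cell lines, 66.0 to 73.5 in the ESC lines, 63.1 to 75.8 in the MASC lines and 89.0 to 141.7 in the SSC lines. Setd1a alone made up 34.8% to 35.9%, 35.9% to 41.7%, 38.1% to 43.7% and 47.4% to 55.2% of these sums in the same order. The sum thus follows the genes with high FPKM and does not show the opposite direction of Setd1b between SSCs and MASCs.

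In the HSC cultures, Kmt2d and Prdm9 were higher and Kmt2b was lower than in the pluripotent cells, that is the mean of the MASC, ESC and iPS groups. Over all transcripts 15.9% were called higher and 17.4% lower, and among those with a mean of at least 1 FPKM 21.2% and 29.3%. Kmt2d was at 7.62 and 9.57 FPKM, above all 10 pluripotent lines (difference 0.93 ± 0.20, adjusted p = 0.00327). Prdm9 was at 1.82 and 1.43 FPKM, also above all of them (0.81 ± 0.21, adjusted p = 0.0114), and Kmt2b was at 11.3 and 13.8 FPKM, below all of them (-0.56 ± 0.13, adjusted p = 0.00543). Setd1a, at 18.6 and 22.4 FPKM (difference -0.14), Setd1b, at 6.03 and 8.92 FPKM (0.29), and Setd7, at 6.87 and 9.36 FPKM (0.54), did not pass, nor did Kmt2a (2.49 and 5.40 FPKM), Kmt2c (2.00 and 3.66 FPKM) and Smyd3 (3.11 and 3.75 FPKM). The median of all expressed transcripts in this comparison was -0.24, and -0.11 with median-of-ratios scaling. The shift was not uniform. Over 10 classes of exonic GC the median ran from -0.68 in the lowest to 0.14 in the highest. Kmt2b and Setd1b lie in the highest class, Kmt2d in class 9 (0.073) and Prdm9 in class 3 (-0.41). In the longest 10% of expressed transcripts 15.9% were higher and 34.8% lower. The part of GC in these values was not tested beyond the alternative with GC classes aligned.

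These HSC calls depended on single cultures. Without HSC replicate 1, Kmt2b (-0.42, adjusted p = 0.0927) and Prdm9 (0.70, adjusted p = 0.106) were no longer called and Setd1b was called higher (0.54, adjusted p = 0.0407). Without HSC replicate 2, Kmt2d (0.78, adjusted p = 0.0575) was no longer called and Kmt2a was called lower (-0.60, adjusted p = 0.00558). With a block for genetic background none of the 3 was called, and Prdm9 had a difference of -0.19, but in that fit the HSC cultures are tied to the other groups through SSC replicate 3 alone. With length classes aligned Kmt2b was not called (-0.11, adjusted p = 0.592). Without the libraries high in Col1a2, which removes HSC replicate 2, 1 member was higher (Prdm9) and 3 were lower (Kmt2a, Kmt2b and Kmt2c). Without those high in Tpsb2 outside the HSC cultures, the counts were 2 and 1 as before. The mast cell markers given above move with every HSC value, and their part was not tested.

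Against SSCs, the HSC cultures were lower in 5 members (Kmt2a, Kmt2b, Kmt2c, Setd1a and Smyd3) and higher in Setd1b, where 20.7% and 12.7% of all transcripts were called. Among transcripts with a mean of at least 1 FPKM 31.3% were lower and 17.6% higher. The largest differences were -1.56 ± 0.21 for Setd1a (adjusted p = 0.000108) and -1.54 ± 0.19 for Kmt2a (adjusted p = 5.28e-05), and both held in all 19 alternatives run. Smyd3 was lower by -1.30 ± 0.27 (adjusted p = 0.00268) and Kmt2b by -1.09 ± 0.14 (adjusted p = 8.77e-05). With length classes aligned neither was called (Smyd3 -0.65, adjusted p = 0.109, Kmt2b -0.17, adjusted p = 0.494), and Smyd3 was also lost with GC classes aligned (-0.72, adjusted p = 0.0678) and in a fit of the compared groups alone (adjusted p = 0.0667). Setd1b was higher by 0.83 ± 0.16 (adjusted p = 0.0018). Kmt2d (0.13, adjusted p = 0.755), Prdm9 (-0.22, adjusted p = 0.546) and Setd7 (-0.032) did not pass. Kmt2c had the weakest call, -0.82 ± 0.26 (adjusted p = 0.0318), with overlapping values. It was lost with median-of-ratios scaling (-0.59, adjusted p = 0.123), quantile normalization (-0.48, adjusted p = 0.209), GC classes aligned (-0.20, adjusted p = 0.559) and length classes aligned (0.10, adjusted p = 0.813), and without HSC replicate 1 (adjusted p = 0.309) or SSC replicate 1 (adjusted p = 0.069). Without the libraries high in Col1a2, 4 members were lower and none was higher (Setd1b at 0.53, adjusted p = 0.11), and without those high in Tpsb2 4 were lower and 1 higher. The median of expressed transcripts was -0.34 here, and -0.11 with median-of-ratios scaling, and in the longest 10% 45.7% were lower.

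**Figure D4:**
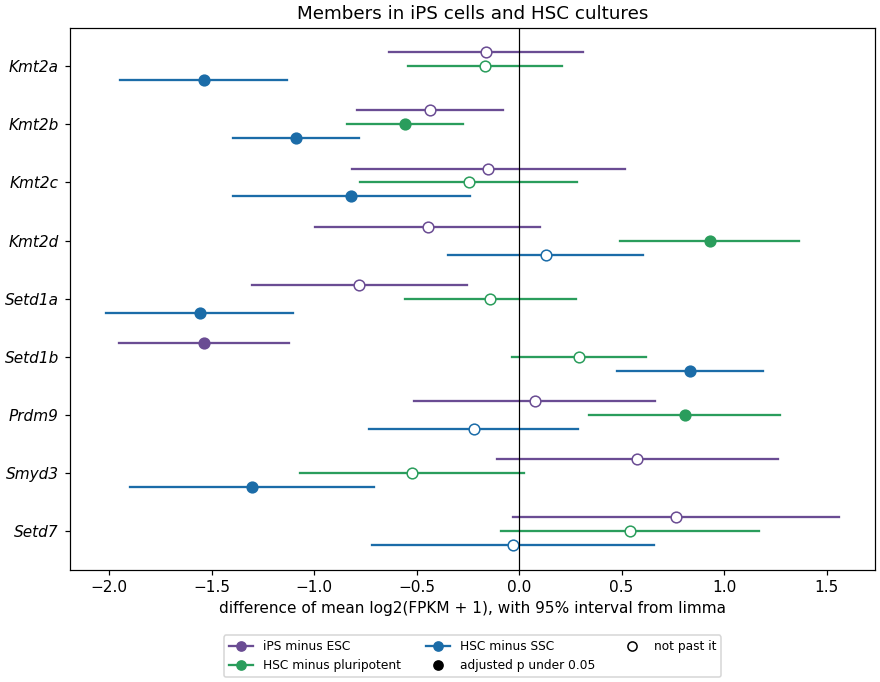
Difference of mean log2(FPKM + 1) (horizontal axis) for each gene (vertical axis) in iPS minus ESC, HSC minus the mean of the pluripotent groups, and HSC minus SSC, with the 95% interval from limma, where filled points passed an adjusted p of 0.05. Setd1b is the only filled point of iPS minus ESC, at -1.54, and Kmt2d and Prdm9 lie right of 0 against the pluripotent cells.

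The MEF sample is a single culture and was not tested. Setd1a was at 14.5 FPKM, Kmt2b at 7.67 FPKM, Kmt2a at 2.93 FPKM and Kmt2c at 1.20 FPKM, each below every other sample except that Kmt2a was lower in HSC replicate 1. Setd1b (4.41 FPKM), Kmt2d (3.78 FPKM), Prdm9 (0.95 FPKM), Smyd3 (3.10 FPKM) and Setd7 (8.06 FPKM) lay within the range of the other samples. The 6 KMT2 and SETD1 genes summed to 34.5 FPKM, the lowest of all samples.

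The core subunits that the KMT2 and SETD1 complexes share were called in both directions. Of the 4, Dpy30 and Ash2l were higher in MASCs than in SSCs, Wdr5 was lower and Rbbp5 did not pass. Dpy30, whose product binds ASH2L and is needed for full trimethylation, was at 54.4 to 68.0 FPKM in SSC lines and 139.7 to 169.5 FPKM in MASC lines, a difference of 1.35 ± 0.089 (adjusted p = 5.06e-06). Wdr5, the scaffold of the core, was at 101.9 to 122.1 FPKM and 78.9 to 91.6 FPKM (-0.41 ± 0.060, adjusted p = 0.000586). Rbbp5 had a difference of -0.28 (adjusted p = 0.246). The main transcript of Ash2l was at 18.5 to 28.0 FPKM in SSC lines and 60.5 to 87.2 FPKM in MASC lines (1.41 ± 0.14, adjusted p = 5.57e-05), but Ash2l has 3 RefSeq transcripts and their sum overlapped, at 53.4 to 92.7 FPKM and 73.0 to 95.4 FPKM (0.24, adjusted p = 0.259). The division among the Ash2l transcripts, as Cufflinks assigned them, thus differed, and a difference of the gene as a whole was not detected. In the HSC cultures the main transcript was at 0.64 to 0.69 FPKM and the sum at 21.0 to 23.6 FPKM. Dpy30 and Wdr5 kept their calls in all 23 alternatives.

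**Figure D5:**
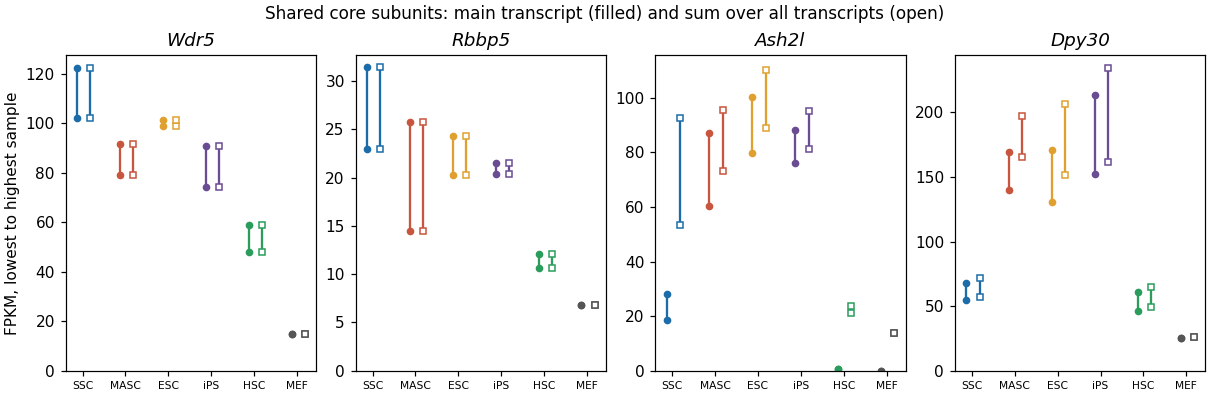
FPKM (vertical axis, from 0) of the 4 shared core subunits by cell type (horizontal axis), drawn as a line from the lowest to the highest sample, with filled circles for the main transcript and open squares for the sum over all RefSeq transcripts of the gene. Dpy30 is higher in MASCs, ESCs and iPS cells than in SSCs on both measures, whereas for Ash2l the main transcript is far apart between SSCs and MASCs and the sum overlaps.

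Partners particular to single complexes changed in both directions between SSCs and MASCs. Among 4 subunits of the SETD1 complexes, Cxxc1, which brings the complex to unmethylated CpG islands, was lower (-1.13 ± 0.26, adjusted p = 0.00819) and Wdr82 was higher (0.53 ± 0.14, adjusted p = 0.0145), and 2 were not called. Cxxc1 stood at 34.6 to 110.6 FPKM in SSC lines, and it was no longer called without the libraries high in Col1a2 (adjusted p = 0.0543) or Tpsb2 (adjusted p = 0.0678), nor was Wdr82 without the former (adjusted p = 0.207). Among 3 partners of MLL1 and MLL2, Hcfc2 (-2.17 ± 0.12, adjusted p = 2.19e-06) and Psip1 (-0.46 ± 0.12, adjusted p = 0.0133) were lower and 1 was not called. All 4 subunits of the MLL3 and MLL4 complexes were called. Kdm6a, the H3K27 demethylase UTX, was higher (1.47 ± 0.20, adjusted p = 0.000438), as was Paxip1 (0.53 ± 0.10, adjusted p = 0.00279), while Ncoa6 (-0.71 ± 0.14, adjusted p = 0.00389) and Pagr1a (-0.34 ± 0.085, adjusted p = 0.014) were lower. Without the libraries high in Col1a2, Ncoa6 (adjusted p = 0.0657), Pagr1a (0.0552) and Psip1 (0.0804) were no longer called, while Kdm6a, Paxip1 and Hcfc2 kept their calls in all 23 alternatives.

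Among the enzymes that remove H3K4 methylation, 1 of 6 was higher in MASCs than in SSCs and 2 were lower. Kdm5c was at 4.75 to 6.13 FPKM in SSC lines and 13.8 to 16.2 FPKM in MASC lines (1.37 ± 0.11, adjusted p = 1.71e-05). Its relative Kdm5a was at 19.0 to 33.2 FPKM in SSC lines and 5.38 to 8.78 FPKM in MASC lines (-1.67 ± 0.16, adjusted p = 4.97e-05), and Kdm1b, which acts in the growing oocyte, was at 15.6 to 24.9 FPKM and 2.32 to 3.96 FPKM (-2.24 ± 0.15, adjusted p = 6.27e-06). Among 11 readers of the mark, 3 were higher and 5 lower. Chd1, a remodeller needed for the open chromatin of ESCs, was higher (1.78 ± 0.20, adjusted p = 0.000129), with Ing5 (0.99) and Ing1 (0.84). Ing2 (-1.02), Phf8 (-0.78) and Taf3 (-0.58) led those that were lower. Of 6 related genes with a SET domain, Smyd5 was higher (0.44) and 3 were lower, with Ash1l at -1.49, Kmt2e at -0.92 and Smyd4 at -0.65. Of 9 early meiotic genes, which were listed because Prdm9 works in meiosis, 4 were lower and none higher. Zcwpw1, whose product reads the marks that PRDM9 writes, was at 46.4 to 62.8 FPKM in SSC lines and 3.53 to 9.02 FPKM in MASC lines (-2.99 ± 0.28, adjusted p = 3.95e-05), Rec8 was lower by -2.78 and Sycp1 by -2.74. The lists were chosen with earlier results of these data known, so their counts are descriptions beside the shares of 11.4% and 19.5% over all transcripts.

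In the other comparisons the counts are read beside the shares of all transcripts called. Of the 4 shared core subunits, 2 were higher and 0 lower in ESCs against SSCs, where 7.67% and 13.8% of all transcripts were called. Those 2 were Dpy30 and the main transcript of Ash2l. The sum over the Ash2l transcripts overlapped, at 88.8 to 110.2 FPKM in ESCs and 53.4 to 92.7 FPKM in SSCs. In HSCs against the pluripotent cells the subunits counted 0 higher and 4 lower (all transcripts 15.9% and 17.4%), and in HSCs against SSCs 0 and 3 (all transcripts 12.7% and 20.7%). The 6 demethylases counted 1 higher and 3 lower in ESCs against SSCs, 0 and 4 in HSCs against the pluripotent cells, and 1 and 4 in HSCs against SSCs. None of the core subunits, partners of single complexes, demethylases, readers, related SET-domain genes or early meiotic genes was called between ESCs and MASCs or between iPS cells and ESCs, where the shares over all transcripts were at most 0.0276% and 0.196%.

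Over the 17 samples, the member pairs with the highest Pearson's r of log2(FPKM + 1) were Kmt2a with Setd1a (0.918) and Kmt2b with Setd1a (0.837), and Setd1b ran opposite to Smyd3 (-0.671). The 17 points share cell types, so these values describe the groups more than the lines, and no p is given. Among 17140 expressed transcripts of all genes, those most like Kmt2a were Gm16023 (0.980), Thap11 (0.973) and Rnf114 (0.966), and those most like Setd1a were Edc4 (0.962), Ssx2ip (0.959) and Crebbp (0.956). For Setd1b they were Asb6 (0.900), Zc3h4 (0.871) and Kdm2b (0.870), for Kmt2b Diexf (0.961), Rrp12 (0.961) and Urb1 (0.957), for Kmt2c Ints7 (0.889), Ryr1 (0.888) and Pikfyve (0.888), and for Kmt2d Zbtb49 (0.943), Fbxo9 (0.929) and Ankrd54 (0.920). For Prdm9 they were Numb (0.948), Acd (0.941) and Uxs1 (0.933), and for Smyd3 Gm9112 (0.954), Nrn1l (0.952) and Fam183b (0.941). Setd7 had the least alike neighbours, Zfand2b (0.837), Zmynd8 (0.801) and Tapbp (0.799).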

How the data were processed

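RNA-seq tables of 17 mouse samples were used, and groups, replicate numbers and backgrounds came from the labels. The authors deposited an FPKM per RefSeq transcript and sample, made with TopHat2 2.0.11 and Cufflinks on mm9. Upper-quartile and GC normalization were applied, and PCR duplicates and reads with several positions were left out. The coverage signal that the authors deposited beside it served for depth only. Read counts were not used, so the counting error is known from the Cufflinks bounds alone. Of 33262 rows, 601 further loci of a transcript were left out. Loci start from 0 in the files and from 1 here. limma 3.58.1 (R 4.3.3) was run on log2(FPKM + 1) over all 32661 transcripts with Benjamini-Hochberg adjustment, for SSC, MASC and ESC lines in a fit of these groups and for iPS cells and HSCs in a fit of all 17 samples, after a check on simulated data. Exonic GC came from GENCODE on mm9 and promoters from RefSeq on GRCm38, which listed 6 of the 9 genes. Named were the 9 members, the 4 core subunits, up to 3 called genes per direction and list with the largest MASC minus SSC difference, and the 3 transcripts most like each member. The members and lists were chosen with earlier results of these data known. Alternatives were pseudocount 0.1, only transcripts reaching 1 FPKM in 2 samples, quantile or median-of-ratios scaling, a trended robust eBayes step, sums per gene, other sets of samples, blocks for replicate number or background, and leaving out each sample. Fits without libraries high in Col1a2 or Tpsb2, or with GC or length classes aligned, were added after the data were seen. The ChIP-seq data were not analysed here.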

Additional observations from a re-analysis of the deposited data

Results flagged for a closer look

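Among the 18 groups of SSC and MASC values checked, 4 held a sample far from the others by Dixon's test, of which chance gives about 1 in 20. SSC replicate 2 was the low sample in 3 of them, with Kmt2a at 11.2 FPKM against 13.2 FPKM in the nearest line, Kmt2d at 4.43 FPKM against 8.93 FPKM and Setd1a at 42.2 FPKM against 68.7 FPKM. The same line had the lowest fibroblast marker sum of the SSC lines, 26.7 FPKM, and the part of this in the 3 values was not tested. In MASCs, replicate 2 had Kmt2d at 5.47 FPKM against 4.73 FPKM in the nearest line.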

How the results depend on the processing

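Of 1116 alternative values of the members' differences, 974 kept direction and side of the threshold, 77 lost a call, 14 gained one and 55 turned direction, 3 of the lost and 1 of the gained being among those that turned, and the cause was not tested. No called difference was called in the opposite direction under any of them. Depth limits Prdm9 most, with Cufflinks bounds up to 26.3% of its value.

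For MASC minus SSC, 7 members were lower. The count was 4 with GC or length classes aligned, 4 with the block for background, 3 without libraries high in Col1a2, 4 without those high in Tpsb2 and 5 to 7 with 1 sample left out. Transcripts higher (3739) came to 7711 with length classes aligned, where Kmt2b was at 0.072 and Setd7 at 0.10.

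For ESC minus SSC, 5 members were lower, against 3 with GC classes aligned, 3 with length classes aligned, 3 with quantile normalization, 3 with the block for background, 2 without libraries high in Col1a2 and 1 to 7 with 1 sample left out. Transcripts higher (2505) came to 5786 with length classes aligned, and transcripts lower (4495) to 2759 without libraries high in Tpsb2 and 2437 to 4869 with 1 sample left out. Kmt2b turned to 0.0030 with GC and 0.039 with length classes aligned, and Kmt2c to 0.027 without libraries high in Col1a2.

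For ESC minus MASC, 9 transcripts were higher, against 0 with GC and 5 with length classes aligned, 5 with the filter, 14 with pseudocount 0.1, 122 without libraries high in Col1a2, 98 without those high in Tpsb2 and 7 to 104 with 1 sample left out. Lower was 1, against 0 in the fit of all 17 samples and with the block for background, 3 with pseudocount 0.1 or without either set of libraries, and 1 to 4 with 1 sample left out. Uncalled differences turned without libraries high in Col1a2 for Kmt2a (0.061), Kmt2b (-0.040) and Smyd3 (-0.071), and without those high in Tpsb2 for Kmt2a (0.079), Kmt2b (-0.086), Kmt2d (0.026), Setd1b (0.019), Prdm9 (0.0027) and Smyd3 (-0.043). They turned with GC classes aligned for Kmt2d (0.043), Setd1a (0.0085) and Setd1b (0.091), with length classes aligned for Kmt2b (-0.032) and Prdm9 (0.019), and for Prdm9 with quantile normalization (0.0047) and the block for background (0.0050). With 1 sample left out they ran from -0.24 to 0.054 for Kmt2a, -0.057 to 0.12 for Kmt2b, -0.044 to 0.0051 for Prdm9, -0.24 to 0.12 for Setd1a and -0.10 to 0.30 for Smyd3.

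For iPS minus ESC, 1 member was lower, against 0 in the fit of the compared groups and with GC classes aligned. Transcripts higher (64) came to 5 in the fit of the compared groups, 12 with GC and 33 with length classes aligned, 12 with the filter, 41 with pseudocount 0.1 and 40 to 153 with 1 sample left out. Transcripts lower (37) came to 10, 4 with GC classes aligned, 9 with the filter, 166 without libraries high in Col1a2, 96 without those high in Tpsb2 and 20 to 81 with 1 sample left out.

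For HSC minus pluripotent, 2 members were higher, against 4 with length classes aligned, 0 with the block for background, 1 without libraries high in Col1a2 and 1 to 2 with 1 sample left out. Lower was 1, against 0 with length classes aligned or the block for background, 3 without libraries high in Col1a2 and 0 to 2 with 1 sample left out. Transcripts higher (5202) came to 10212 with GC and 9655 with length classes aligned and 2596 with the block for background, and transcripts lower (5684) to 3009 with that block and 3658 to 5830 with 1 sample left out. Kmt2a turned to 0.28 and Kmt2c to 0.20 with length classes aligned, Kmt2c to 0.22 with GC classes aligned, Prdm9 to -0.19 with the block for background, and Setd1a to 0.031 with median-of-ratios scaling and 0.17 with length classes aligned. With 1 sample left out Kmt2a ran from -0.60 to 0.27 and Kmt2c from -0.56 to 0.072.

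For HSC minus SSC, 1 member was higher, against 3 with length classes aligned and 0 without libraries high in Col1a2, and 5 were lower, against 3 in the fit of the compared groups, 3 with GC and 2 with length classes aligned. Transcripts higher (4159) came to 2466 in the fit of the compared groups, 9913 with GC and 9901 with length classes aligned, and transcripts lower (6747) to 3575 in the fit of the compared groups and 4459 with GC classes aligned. Kmt2c turned to 0.10 with length classes aligned and Kmt2d to -0.17 with the block for background. From -0.22, Prdm9 turned to 0.40 with GC and 0.29 with length classes aligned, 0.13 with quantile normalization, 0.10 without libraries high in Col1a2 and 0.018 without those high in Tpsb2. With the block for background Prdm9 was called lower (-0.94, adjusted p = 0.00108). In that fit SSC replicate 3 alone ties the HSC cultures to the other groups. From -0.032, Setd7 turned to 0.24 with median-of-ratios scaling, 0.55 with GC and 0.89 with length classes aligned, 0.25 with quantile normalization and 0.097 with the block for background. With length classes aligned Setd7 (adjusted p = 0.0337) and Kmt2d (1.05, adjusted p = 0.00406) were called higher. With 1 sample left out Kmt2d ran from -0.10 to 0.28, Prdm9 from -0.35 to 0.018 and Setd7 from -0.23 to 0.17.

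Replicate numbers recur across groups, and no source says that they pair lines. Deviations of same-numbered lines correlated from -0.225 to 0.185 between SSCs and MASCs, 0.208 to 0.262 between SSCs and ESCs, -0.355 to 0.414 between MASCs and ESCs and -0.039 to 0.035 between HSCs and SSCs, and at -0.067 between ESCs and iPS cells. The numbers were not taken as pairs, although both pairs of SSCs and ESCs were positive. With 2 ESC lines the deviations from their mean mirror each other, so these pairs are not separate values and cannot settle this. SSC replicate 1 and ESC replicate 1 also share Oct4-GFP and Col1a2 above 100 FPKM. With the replicate block, 4 members were lower in MASC minus SSC, with 2271 transcripts higher and 3674 lower, and 1 member was lower in ESC minus SSC, with 1272 transcripts higher and 2105 lower, Setd1a (adjusted p = 0.0628), Prdm9 (0.112), Smyd3 (0.172) and Setd7 (0.131) no longer being called. With the replicate block 2 transcripts were higher and 0 lower in ESC minus MASC, where Kmt2d was at 0.035 and Prdm9 at 0.049, and 24 were higher and 12 lower in iPS minus ESC.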
